A study of Mus musculus with 58 samples.

Results

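The 9 genes described here are known from the choroid plexus and the walls of the ventricles (Enpp2, Col9a3, Sulf1, Igfbp2, Ace, Slc4a2, Cgnl1, Car14 and Trpm3), and they were followed through 58 RNA sequencing libraries of mouse somatosensory cortex. They are 9 of the 9636 genes in the deposited count table. They were taken by name, because they lie together at one end of a component of variation of these same libraries, so their covariation and their joint height are a description of how they were chosen and were given no test. All 9 were in the table, and every library has at least 101 counts of each.

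The libraries are polyadenylated RNA from C57BL/6J mice that were 2 to 4 months old when they entered the study. A mouse had a closed head injury on each of 5 successive days (5xCHI) or as many sham procedures, and 30 minutes after each was given either SB239063 (SB, 20 mg/kg, intraperitoneal), a small molecule that blocks p38 MAPK, a kinase of stress signalling, or physiological saline by the same route (vehicle). Sampling was chronic (around 18 or 34 days, without a statement of which mouse belongs to which day). Injured mice given SB numbered 11 females and 8 males, and injured mice given vehicle 12 females and 8 males. Sham mice given SB numbered 3 females and 2 males, and sham mice given vehicle 9 females and 5 males. The labels name no transgene or deletion, and every mouse went through the same number of procedures and injections, so no group is untouched. The labels give 4 cohorts per sex (F1 to F4 and M1 to M4). They do not state that each library is a separate animal. Numbers of mice given here and below therefore count libraries, and p-values measure the spread between these libraries.

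The choroid plexus is a sheet of epithelium over a core of leaky vessels that hangs in the ventricles and makes the cerebrospinal fluid. Its cells move bicarbonate and chloride with anion exchangers and carbonic anhydrases, seal the path between cells with tight junctions, and release carrier proteins, growth factor binding proteins and enzymes into the fluid. The somatosensory cortex contains no choroid plexus, and most of the 9 genes are also used at a lower level by vessels, meninges, oligodendrocytes or neurons of the cortex itself.

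The label of the gene set could not be checked against its defining markers. Of 12 defining choroid plexus markers, Ttr, Folr1, Kl and Clic6 among them, 0 were in the table, and of 5 defining ependymal markers 0 were in the table. They were not analysed here. The table holds only genes with at least 101 counts in every library, so it cannot show a transcript that is absent from most of them. Of the markers of the labelled tissue, 10 of 10 upper layer and 12 of 15 deep layer cortical genes were measured. So were 9 of 15 striatal projection neuron, 5 of 10 thalamic and 5 of 11 hippocampal genes. Library totals ran between 28316280 and 49158277 counts.

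A pair of libraries stood apart in all 9 genes, and they are described first because they touch every later value. They are F sham + vehicle replicate 4 (cohort F3, 39781758 counts) and M 5xCHI + SB replicate 6 (cohort M4, 36118675 counts), a female and a male of opposite injury and treatment. In both, every one of the 9 genes lay above the highest of the other 56 libraries. Over all genes this held for 97 of 9636, which is 1.01%. Since the 9 were chosen on these libraries, nothing is read from that contrast. The 2 libraries are named from their measured values, not from a label.

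Enpp2 encodes autotaxin, the secreted enzyme that makes the signalling lipid lysophosphatidic acid. It had 2841 CPM (TMM-scaled read counts relative to library size) in F sham + vehicle replicate 4 and 2358 CPM in M 5xCHI + SB replicate 6, against a median of 307 CPM in the other 56 libraries, whose lowest value was 208 and highest 420. These are 9.27 and 7.69 times that median. The raw counts behind them were 113718 and 88526.

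The matrix genes showed the same picture. Col9a3, which encodes a chain of type IX collagen, had 140 CPM in the female library and 125 CPM in the male library, against a median of 14.2 CPM (8.35 to 26.0) in the other 56. Sulf1, an extracellular sulfatase that edits heparan sulfate chains, had 109 CPM and 89.5 CPM, against a median of 15.8 CPM (8.42 to 22.5). The folds were 9.90 and 8.82 for Col9a3 and 6.88 and 5.67 for Sulf1. Igfbp2, a secreted binding protein for insulin-like growth factors that choroid plexus and meninges release, had 108 CPM and 133 CPM, against a median of 24.4 CPM (13.3 to 53.1). It is the only one of the 9 that was higher in the male library than in the female library.

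Ace encodes angiotensin-converting enzyme, a membrane peptidase of vessel walls and choroid plexus. It had 144 CPM in F sham + vehicle replicate 4 and 120 CPM in M 5xCHI + SB replicate 6, against a median of 15.2 CPM (6.18 to 24.9) in the other 56 libraries, or 9.42 and 7.88 times that median.

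Among the transport and junction genes, Slc4a2, a chloride and bicarbonate exchanger, had 165 CPM in the female library and 124 CPM in the male library, against a median of 40.6 CPM (28.3 to 59.8) in the other 56. Car14, a membrane carbonic anhydrase whose active site faces outward, had 39.6 CPM and 33.3 CPM, against a median of 11.6 CPM (7.26 to 23.1). Trpm3, a heat-sensitive cation channel, had 326 CPM and 233 CPM, against a median of 82.5 CPM (42.9 to 119). These 3 were between 2.82 and 4.06 times the median of the other 56. Cgnl1, which encodes paracingulin, a protein of the inner face of tight and adherens junctions, had 106 CPM and 64.5 CPM, against a median of 21.1 CPM (13.6 to 29.5), or 5.01 and 3.05 times that median.

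**Figure D1:**
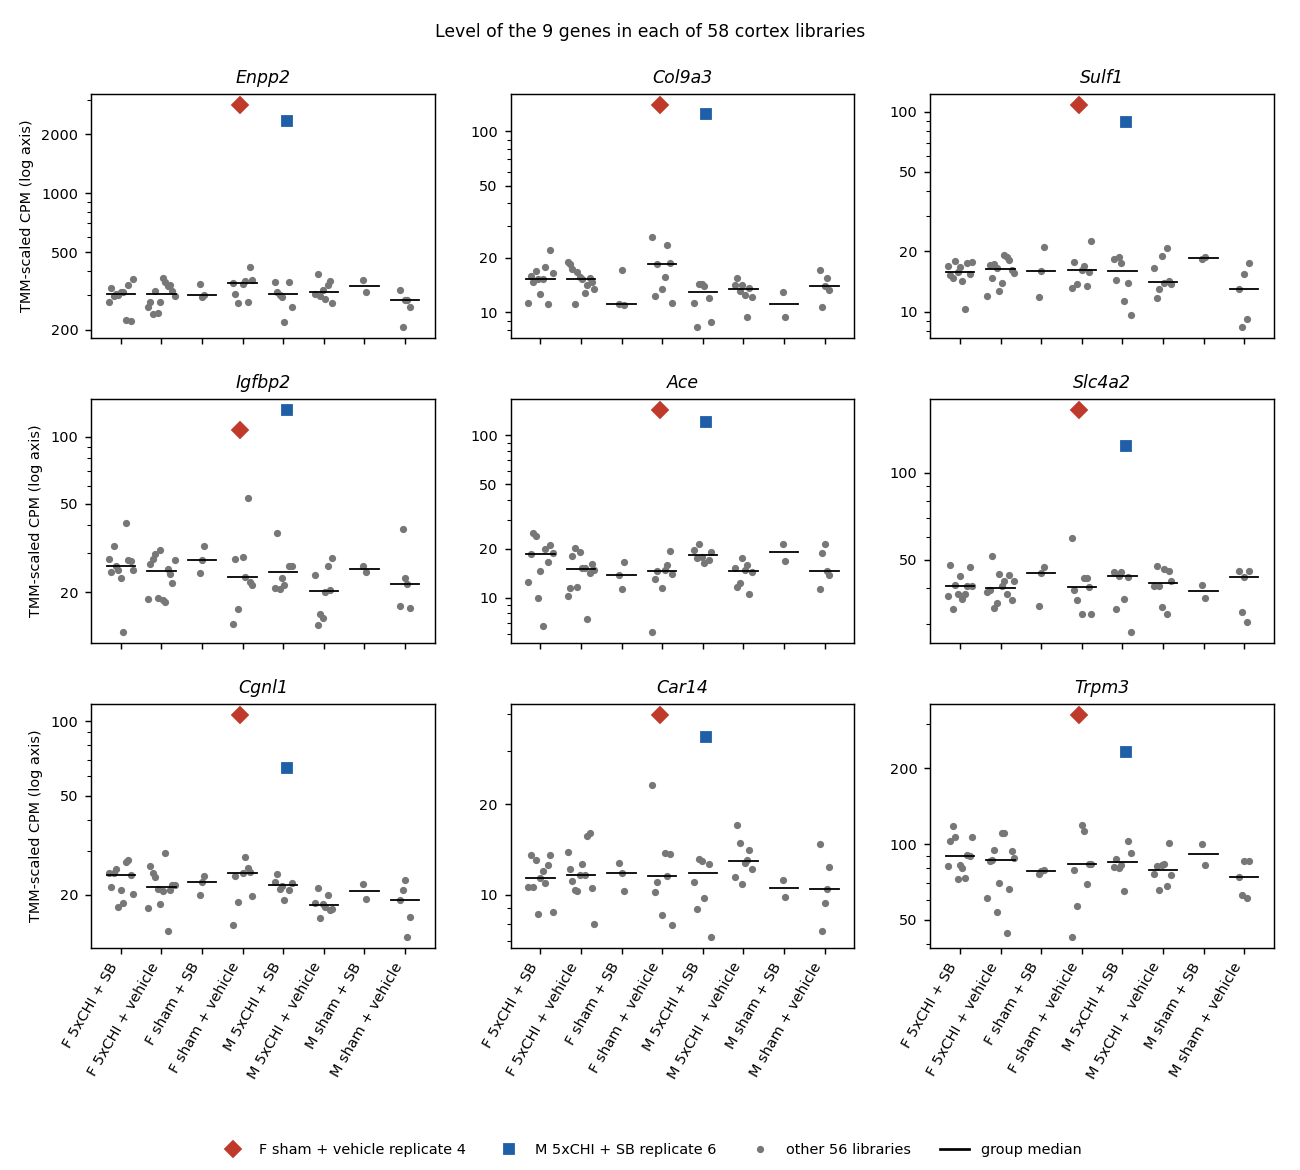
TMM-scaled CPM (log axis) of each of the 9 genes in every library, by sex, injury and treatment. Each point is 1 library, black lines are group medians, the red diamond is F sham + vehicle replicate 4 and the blue square is M 5xCHI + SB replicate 6. Both lie above all other 56 libraries in all 9 panels, while the 56 overlap between groups.

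Some other genes of the choroid plexus list also stood high in these 2 libraries. Of 5 further list genes in the table, 3 lay above all other 56 libraries in both, beside 1.01% of all genes. The list was chosen with earlier results of these data known, so nothing is read from this count. Slc31a1, a copper importer, was 2.86 times the median of the 56 in the female library and 3.28 times in the male library. Cab39l, a scaffold of the kinases that regulate cation chloride cotransport, was 2.21 and 2.55 times, and the potassium chloride cotransporter gene Slc12a4 was 1.98 and 1.62 times. The remaining list genes Atp11a and Slc5a5 did not lie above all 56 in both libraries. The summed level of the 5 was 331 CPM in the female library and 308 CPM in the male library, against 157 to 214 CPM in the other 56.

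Markers of other cell types that such a sample could hold were looked at in the same 2 libraries, also without a test. None of 2 ependymal, 6 leptomeningeal, 15 oligodendrocyte, 12 microglial or 4 mural genes lay above all 56 others in both libraries, and of 15 astrocyte and 15 endothelial genes 1 each did (Slc7a10 and Slco1c1). The summed leptomeningeal level was 606 CPM and 531 CPM, against 364 to 1241 CPM in the other 56 libraries. Among the defining leptomeningeal markers, Dcn, Lum and Col1a1 were not in the table, and Col1a2 was. The summed oligodendrocyte level was 10552 CPM and 9729 CPM, against 2835 to 22515 CPM. Both sums therefore lay inside the range of the other libraries. Whether choroid plexus tissue was carried into these 2 samples was not tested, because its defining markers were not analysed here. In bulk RNA, more cells of a type and more RNA per cell cannot be told apart.

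Beyond the lists, 88 genes that are no members lay above all other 56 libraries in both, and 5 lay below. A fold of at least 2 in both libraries was reached by 26 genes, of which 9 are the members. The highest of the other genes, picked here after their values were seen, were Slc31a1, the cobalamin carrier gene Tcn2 (2.95 and 2.82 times the median), the protease inhibitor gene Spint2 (2.65 and 3.54 times), Fhad1 (3.34 and 2.64 times) and the growth factor gene Tgfb2 (2.57 and 2.73 times). The 5 below all others were Adnp2, Flrt1, Panx1, Smarcd1 and Upp2. Panx1, a channel protein, had 12.7 CPM and 12.6 CPM, against a lowest value of 13.0 CPM in the other 56.

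**Figure D2:**
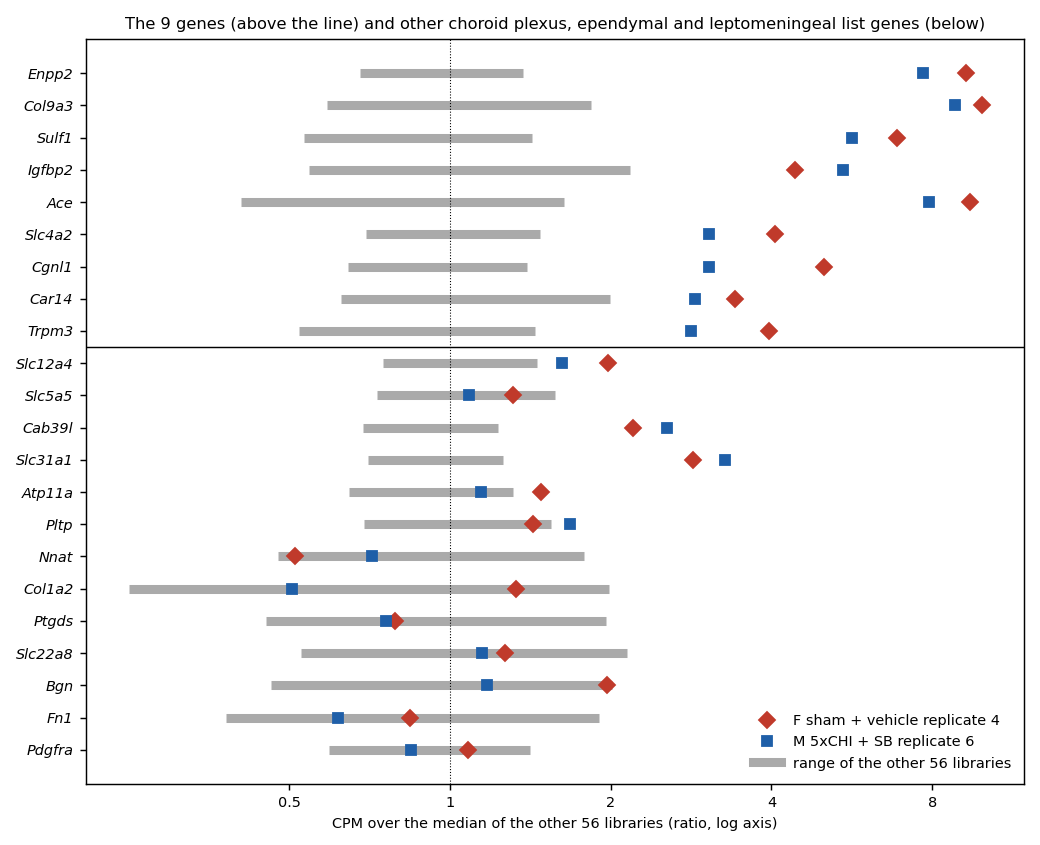
CPM of F sham + vehicle replicate 4 (red diamond) and of M 5xCHI + SB replicate 6 (blue square) over the median of the other 56 libraries (ratio, log axis), with the range of those 56 as a grey bar. The 9 genes stand above the line, from 2.82 to 9.90 times the median, and the other measured choroid plexus, ependymal and leptomeningeal list genes below it, where Slc31a1, Cab39l and Slc12a4 are the ones outside the grey bar in both libraries.

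Of the leading components of the libraries, the sixth correlated most with the mean of the 9 genes, and it held 3.44% of the variance. It was picked by that correlation. High loadings of the members and high scores of the 2 libraries on it are therefore partly given by the choice. Cohort, and with it sex, accounted for 14% of its scores' spread, and condition for a further 20%. Enpp2, Col9a3, Sulf1, Igfbp2, Ace, Slc4a2 and Cgnl1 held ranks 1 to 7 of its loadings, and Car14 and Trpm3 ranks 11 and 12. Between and beyond them lay genes with no place in the set: Scn4b at rank 8, Col11a1 at rank 9, Frzb at rank 10 and Strip2 at rank 13. The loading of Trpm3 was 0.0598 and that of Strip2, the first gene after the last member, 0.0589. The highest scores belonged to M 5xCHI + SB replicate 6 (11.8) and F sham + vehicle replicate 4 (11.4). Next came F sham + vehicle replicate 7 at 8.69, but its Enpp2 (279 CPM) and Sulf1 (13.5 CPM) ranked 44 and 46 of 58, and only its Igfbp2 (rank 3) and Col9a3 (rank 4) were near the top.

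Levels between genes were compared per kilobase of exon (exon union of the GENCODE annotation on GRCm38, which is not the build of the files). Over the 56 libraries Enpp2 was far the most abundant, with a median of 91.7 CPM per kb, and Igfbp2 followed with 16.7. Slc4a2 had 8.73, Car14 6.78, Trpm3 5.69, Col9a3 4.66, Ace 2.99, Cgnl1 2.92 and Sulf1 2.12 CPM per kb. The ranges of Enpp2 (62.1 to 126) and Igfbp2 (9.10 to 36.3) did not overlap, whereas the ranges of the other 7 overlapped with that of a neighbour in this order.

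The upstream sequence of 6 of the 9 genes was available in the RefSeq promoter table (GRCm38.p6), in 10 windows. Enpp2, Col9a3 and Sulf1 have no entry there. The 250 bases before the annotated start were searched on both strands for TAATCC, the core bound by OTX2, a homeodomain factor of choroid plexus identity, and for GTAAACA (forkhead core), TAATTA (LIM homeodomain core), TGACGT (cAMP response element core), CACGTG (E-box), GGGCGG (GC box) and TGANTCA (AP-1 site). The core TAATCC was found in 2 of the 10 windows, one each of Ace and Car14, and in 6.25% of 32851 windows of all genes. Both are shown 5′ to 3′ on the gene's strand with all matches in capitals, chr11:105967698-105967947 on the plus strand for Ace and chr3:95904686-95904935 on the minus strand for Car14.
Ace: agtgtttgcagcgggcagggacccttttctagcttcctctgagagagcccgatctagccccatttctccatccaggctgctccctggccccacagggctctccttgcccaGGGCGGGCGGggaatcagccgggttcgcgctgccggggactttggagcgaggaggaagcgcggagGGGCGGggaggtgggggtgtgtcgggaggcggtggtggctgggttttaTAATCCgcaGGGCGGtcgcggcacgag
Car14: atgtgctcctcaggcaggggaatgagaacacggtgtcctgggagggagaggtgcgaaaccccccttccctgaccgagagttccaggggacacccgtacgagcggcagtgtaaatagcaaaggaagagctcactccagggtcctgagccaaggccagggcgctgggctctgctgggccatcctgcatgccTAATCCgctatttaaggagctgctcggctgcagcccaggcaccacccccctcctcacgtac
In Ace the TAATCC core ends 22 bases before the start, and in Car14 it ends 56 bases before it. The other capitals in Ace are GC boxes, 2 of which overlap in the first block. The GC box was found in 3 of the 10 windows and in 32.7% of all windows. The E-box and the AP-1 site were found in 1 window each, both of Igfbp2, and in 6.02% and 6.75% of all windows. The forkhead, LIM homeodomain and cAMP response element cores were found in 0 of the 10, and in 3.17%, 4.84% and 6.47% of all windows. A match is a string of letters in a window, and no binding was measured here.

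The mean Pearson correlation of log2 CPM over the 36 gene pairs was 0.70 in 58 libraries, with no pair below 0, and it was 0.086 in the 56, where 16 pairs lay below 0. It was 0.071 after cohort and condition means were removed. The correlation over 58 therefore rests on those libraries and is given without a test.

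Within the 56 libraries the set came apart into small groups of pairs. The highest pair was Slc4a2 and Car14, the exchanger and the carbonic anhydrase, with r = 0.62 and rho = 0.54, r = 0.48 without the 2 libraries farthest from the median, and r = 0.70 with cohort and condition removed. Col9a3 joined them, with r = 0.47 to Slc4a2 and 0.48 to Car14. Cgnl1 and Trpm3 had r = 0.59 (rho = 0.52, and 0.44 with cohort and condition removed), Ace and Trpm3 0.50 (0.17 with cohort and condition removed), and Ace and Cgnl1 0.49 (0.34). Enpp2 and Sulf1 had r = 0.45 (0.36). Igfbp2 had r = 0.48 to Cgnl1 (0.29) and 0.46 to Ace (0.27), while it ran opposite to Car14, with r = -0.43 (-0.32).

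**Figure D3:**
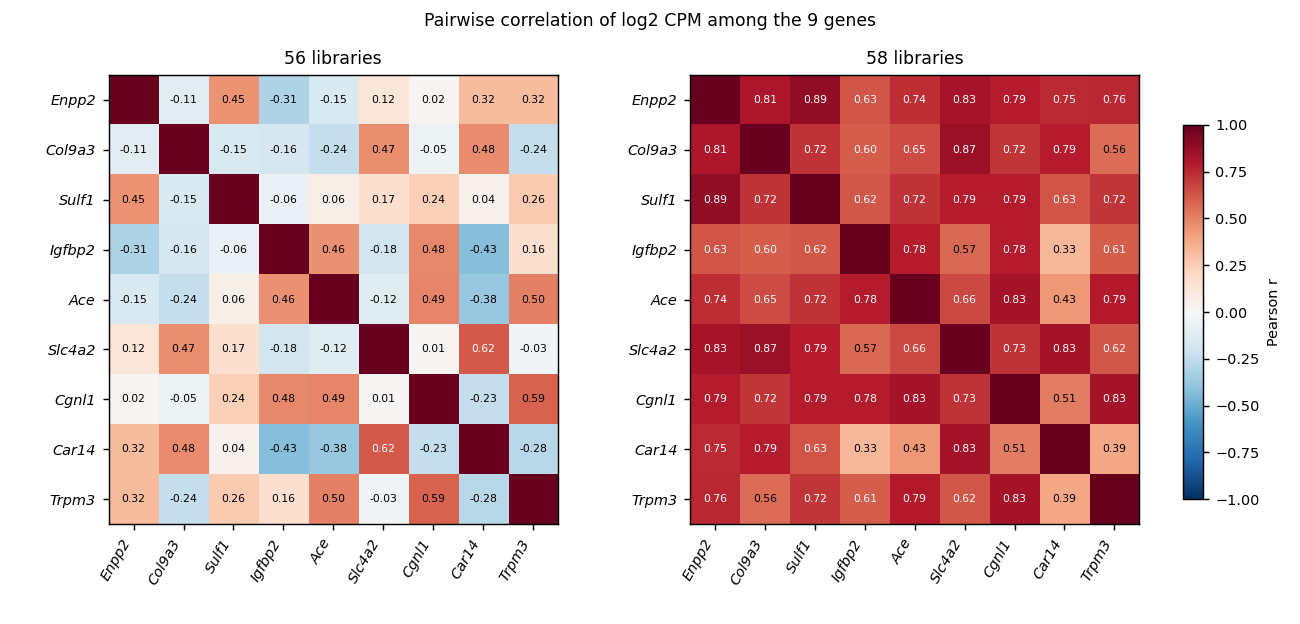
Pearson r of log2 CPM for every pair of the 9 genes, over 56 libraries (left) and over all 58 (right), on a scale of -1 to 1. All 36 pairs are above 0 on the right, and 16 of them are below 0 on the left.

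The members were set beside marker lists over the 56 libraries. These values are over libraries that share cohorts and are descriptions without a test. Ace followed the 6 leptomeningeal genes (r = 0.84, rho = 0.78, and 0.75 with cohort and condition removed), and Cgnl1 followed the same list (r = 0.70) and the 15 endothelial genes (r = 0.71, and 0.48 with cohort and condition removed). Car14 followed the 15 oligodendrocyte genes (r = 0.74, rho = 0.69, and 0.73 with cohort and condition removed), while Igfbp2 ran against them (r = -0.66, and -0.66 with cohort and condition removed). Enpp2, which mature oligodendrocytes also express, had r = 0.54 to the oligodendrocyte list and 0.64 to the 5 thalamic genes. Trpm3 had 0.59 each to the leptomeningeal, thalamic and upper layer lists, and with cohort and condition removed 0.26, 0.61 and 0.38 in that order. Sulf1 had 0.53 to the striatal projection neuron list. To the 5 other choroid plexus list genes, r ran between -0.25 for Igfbp2 and 0.48 for Slc4a2. Slc4a2 had higher values to the oligodendrocyte list (r = 0.57, and 0.65 with cohort and condition removed). Its r to the 9 oligodendrocyte precursor genes was 0.58 (0.56 with cohort and condition removed).

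**Figure D4:**
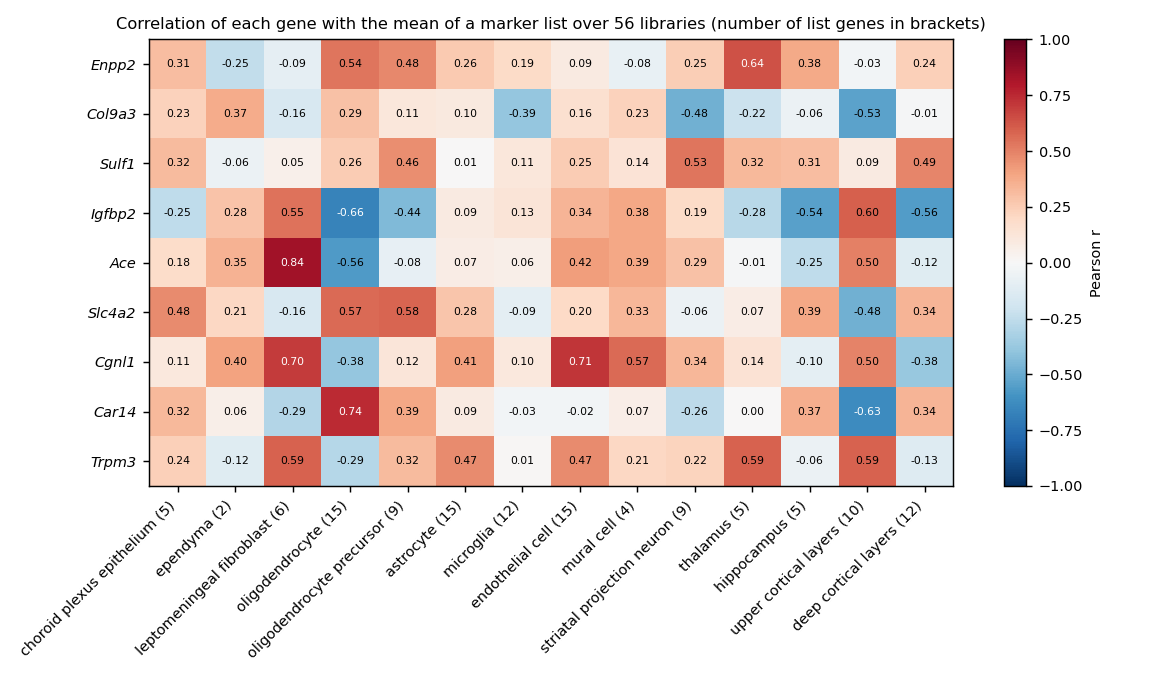
Pearson r over 56 libraries between the log2 CPM of each gene (rows) and the mean standardised log2 CPM of a marker list (columns, number of list genes in brackets), on a scale of -1 to 1. Ace and the leptomeningeal list stand highest at 0.84, followed by Car14 and the oligodendrocyte list at 0.74.

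The single genes most like each member over the 56 libraries, looked up after the 2 libraries had been seen, were these. For Ace they were Islr (r = 0.84), Slc6a20a (0.83) and the collagen gene Col1a2 (0.82), all 3 known from meningeal fibroblasts. Cgnl1 was nearest to fibronectin, Fn1 (0.78), and close to the endothelial genes Vwf (0.76) and Cdh5 (0.72). Slc4a2 was nearest to Kif1c and the collagen receptor gene Ddr1 (0.84 each), Car14 to Septin4 (0.80), and Sulf1 to Syt6 (0.74) and the transcription factor gene Foxp2 (0.71), both of deep cortical layers. Trpm3 was nearest to Dock4 (0.87), Enpp2 to Lamp2 (0.76), Col9a3 to Ivd (0.81) and Igfbp2 to Cacnb3 (0.75). Over all 58 libraries the genes most like the mean of the 9 were Tcn2 (r = 0.88), Slc31a1 (0.86), Cab39l (0.81) and Tgfb2 (0.73), and in the 56 the same genes had r of 0.37, 0.10, 0.15 and 0.22 to it. The opposite end over 58 held Panx1 (r = -0.48), Riox1, Marcks, Alg2 and Gnpda1.

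Levels of several members differed between cohorts. Cohorts lie within sex, so a share held by cohort also holds any difference between females and males. Any such grouping takes some share, and its size without a difference was not computed. The cohort held 48.9% of the variance of Trpm3 over the 56 libraries, 46.9% of that of Ace, 42.4% of that of Col9a3 and 42.2% of that of Cgnl1, but 10.0% of that of Enpp2 and 7.95% of that of Slc4a2, beside a median of 27.5% over all genes. Trpm3 had a median of 103 CPM in cohort F3, against 61.1 CPM in F4 and 69.3 CPM in F2. Ace had a median of 18.7 CPM in F3, and its lowest cohort was F2 with 8.63 CPM. Cohort was a term of every test.

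Injury was set against sham in vehicle mice, to ask whether transcripts differed at the chronic time after repeated injury. Of all genes 0% were called at an adjusted p under 0.05 by edgeR, and of the 9 members 0 were. DESeq2 and limma voom also called 0, though DESeq2 gave no p to Ace, Enpp2 and Sulf1 and so could not call them. An unadjusted p under 0.05 was reached by 169 genes with edgeR, 182 with DESeq2 and 164 with limma voom. Enpp2 had a lowest, median and highest level of 240, 310 and 387 CPM in the 20 injured mice, against 208, 307 and 420 CPM in the 13 sham mice other than replicate 4 of the females. The groups overlapped over nearly their whole range. Its log2 fold change was -0.36 ± 0.25 (SE, adjusted p = 1) with all libraries and 0.03 ± 0.07 (adjusted p = 1) without the 2 libraries.

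All 9 members were lower after injury with all libraries, by a median of -0.25 on the log2 scale, beside -0.00 over all genes. This joint direction rests on libraries on which the members were chosen, so nothing is read from it. The most negative were Col9a3 at -0.51 ± 0.26 and Ace at -0.47 ± 0.27 (SE, adjusted p = 1 for both). Without the 2 libraries, 5 were higher and 4 lower, with a median of 0.01. Ace had 7.36, 14.7 and 20.1 CPM (lowest, median, highest) in the 20 injured vehicle mice, against 6.18, 14.5 and 21.3 CPM in the other 13 sham vehicle mice, and its fold change became -0.02 ± 0.11. Across the 8 cohorts Ace was higher in injured mice in 5 without the 2 libraries, and Col9a3 in 2.

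Split by sex, the sham group of the females holds one of the 2 libraries. All 9 were lower in injured females, and 6 had an unadjusted p under 0.05, beside 3.14% of all genes. Since the members were chosen on these libraries, nothing is read from either count. The most negative was Enpp2 at -0.94 ± 0.31 (SE, adjusted p = 1). Of all genes 0% were called after adjustment in females and 0% in males. Without the 2 libraries, 0 of the 9 had an unadjusted p under 0.05 in females, beside 2.81% of all genes, and Enpp2 was at -0.18 ± 0.09 (adjusted p = 0.999). In that fit 8 members were still lower in injured females and 1 was higher, with a median of -0.03, while 47.4% of all genes were higher. In injured males 5 members were higher and 4 lower.

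The difference of the injury effect between the sexes was tested as a term of its own. Enpp2 had an injury effect 1.15 ± 0.50 higher in males than in females (log2, SE, adjusted p = 0.786), and 0.41 ± 0.15 higher without the 2 libraries (unadjusted p = 0.00658, adjusted p = 0.779 by edgeR). The male effect was 0.24 ± 0.11 and the female effect -0.18 ± 0.09 in that fit. Injured vehicle males had a median of 313 CPM (274 to 387), against a median of 283 CPM (208 to 320) in the 5 sham vehicle males. Of the 9 members, 2 had an unadjusted p under 0.05 for this difference with all libraries, beside 6.13% of all genes, and 1 without the 2 libraries, beside 5.85%. The count with all libraries also rests on the choice of the members, and nothing is read from it. After adjustment 0% of all genes were called.

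SB was set against vehicle in injured mice, to ask whether blocking p38 changed transcripts after injury. Of all genes 0% were called at an adjusted p under 0.05, and of the members 0 were, and 0 by DESeq2 or limma voom either. Here too DESeq2 gave no p to Ace, Enpp2 and Sulf1 and so could not call them. An unadjusted p under 0.05 was reached by 680 genes with edgeR, 705 with DESeq2 and 692 with limma voom. This comparison shares its injured vehicle libraries with that of injury. With all libraries 8 of the 9 were higher with SB, with a median of 0.24 on the log2 scale, beside 0.00 over all genes, and without the 2 libraries 4 were higher and 5 lower, with a median of -0.03. An unadjusted p under 0.05 was reached by Igfbp2 and Ace with all libraries, beside 7.06% of all genes, and by Ace and Cgnl1 without the 2, beside 9.44%. Nothing is read from the joint direction or the count with all libraries, on which the members were chosen.

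Ace was the member with the largest difference. It had 6.73, 18.2 and 24.9 CPM (lowest, median, highest) in the 18 injured SB mice other than male replicate 6, against 7.36, 14.7 and 20.1 CPM in the 20 injured vehicle mice. The sham SB mice had 13.8, 11.3 and 16.5 CPM in females and 21.2 and 16.8 CPM in males. The ranges overlapped, and the lowest value was in the SB mice as was the highest. The log2 fold change was 0.54 ± 0.25 (SE, adjusted p = 0.689) with all libraries and 0.27 ± 0.10 (95% interval 0.08 to 0.47, adjusted p = 0.46) without the 2, and it was above 0 in 6 of 8 cohorts. Without the 2, the values of cohorts F4 and M4 rest on F 5xCHI + SB replicate 8 alone and M 5xCHI + SB replicate 5 alone. In males alone the fold change of Ace was 0.94 ± 0.39 with all libraries and 0.36 ± 0.15 without the 2 (adjusted p = 1 for both).

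Cgnl1 was next in size of p without the 2 libraries. It had 17.9, 22.0 and 27.6 CPM in the 18 injured SB mice, against 14.4, 20.4 and 29.5 CPM in the 20 injured vehicle mice. Its fold change was 0.29 ± 0.14 (SE, adjusted p = 0.712) with all libraries and 0.15 ± 0.06 (adjusted p = 0.486) without the 2, and it was above 0 in 8 of 8 cohorts, by 0.0020 to 0.49. The highest value, 0.49 in F4, rests on F 5xCHI + SB replicate 8 alone, and that of M4, 0.04, on M 5xCHI + SB replicate 5 alone. With F 5xCHI + SB replicate 8 left out of all libraries, the SB effect of Cgnl1 in females was -0.01. How many of all genes were above 0 in every cohort was not counted. Igfbp2 had 0.46 ± 0.20 (SE, adjusted p = 0.689) with all libraries and 0.20 ± 0.12 (adjusted p = 0.594) without the 2.

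Of the other 6 members in the 56 libraries, Enpp2 was at -0.07 ± 0.07, Sulf1 at -0.07 ± 0.09 and Col9a3 at -0.06 ± 0.09, all 3 of which were above 0 with all libraries. Slc4a2 was at -0.03 ± 0.07, Car14 at -0.15 ± 0.09 and Trpm3 at 0.12 ± 0.07 (SE, adjusted p between 0.606 and 0.901 over these 6 by edgeR). In injured males 3 members (Ace, Igfbp2 and Cgnl1) had an unadjusted p under 0.05 with all libraries, beside 1.88% of all genes, and 2 (Ace and Cgnl1) without the 2, beside 1.88%. After adjustment 0% of all genes were called in injured males and 0% in injured females.

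**Figure D5:**
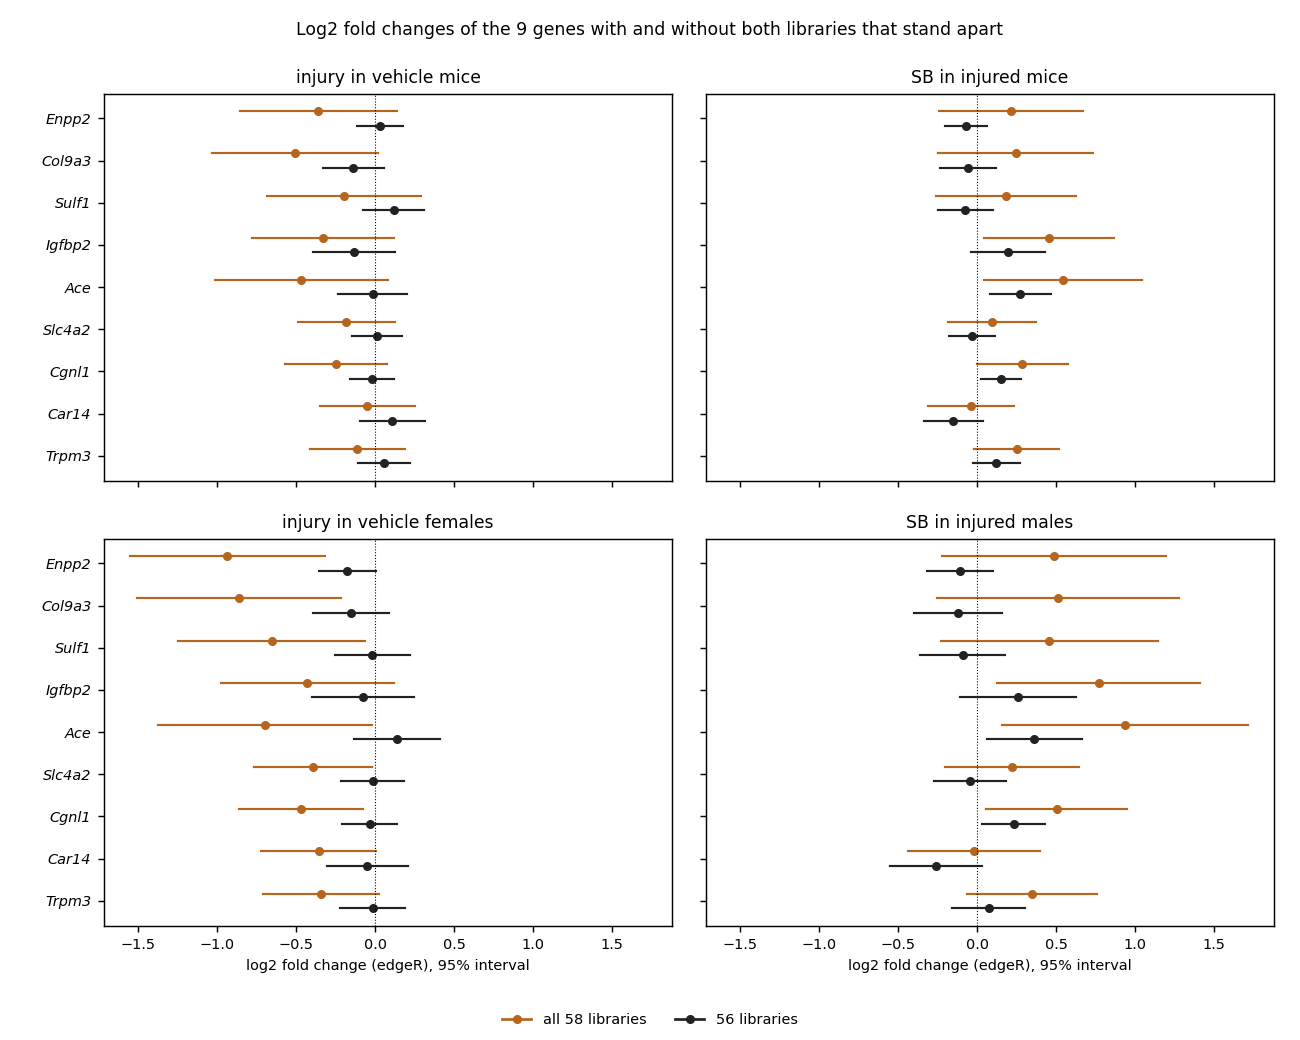
Log2 fold changes (points) with 95% intervals (lines) from edgeR for the 9 genes, with all 58 libraries (brown) and with 56 (black), for injury (vehicle mice), SB (injured mice), injury among vehicle females and SB among injured males. All 9 brown points lie left of 0 for injury and 8 lie right of 0 for SB, whereas the black points lie on both sides of 0 in both comparisons.

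The lists that Ace and Cgnl1 tracked were also higher with SB, without a call. All 6 leptomeningeal genes were higher with SB in injured mice, with a median log2 fold change of 0.16 both with all libraries and without the 2, and 0 were called. Fn1 had the smallest p, at 0.34 ± 0.09 (SE, adjusted p = 0.46) without the 2 libraries. The summed leptomeningeal level had a lowest, median and highest value of 364, 735 and 1241 CPM in the 18 injured SB mice, against 446, 654 and 1003 CPM in the 20 injured vehicle mice. All 15 endothelial genes were higher as well (median 0.09), with summed levels of 380 to 661 CPM in injured SB mice, against 383 to 616 CPM in injured vehicle mice. The rise was not particular to these lists. All 10 upper layer genes (median 0.16) and all 9 striatal projection neuron genes (median 0.19) were higher too, with all libraries. Of all genes 52.2% were higher there. Ace and Cgnl1 each had r = 0.50 to the upper layer list over the 56 libraries, and 0.19 and 0.36 with cohort and condition removed. The 15 oligodendrocyte genes were all lower (median -0.33), and 0 were called. The part of these lists in the values of Ace and Cgnl1 was not tested.

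The partners of the members in their pathways gave no call in either comparison. Unless stated, the counts and values that follow are with all libraries. There 52.2% of all genes were higher with SB and 49.4% were higher after injury. Of 16 other genes of the lysophosphatidic acid axis, 8 were higher and 8 lower with SB (10 and 6 without the 2 libraries). The receptor gene Lpar1, which oligodendrocytes express, was at -0.30 ± 0.10 (SE, adjusted p = 0.655). Of 14 genes of the insulin-like growth factor axis 12 were higher, with a median of 0.03. Of 27 bicarbonate, pH and fluid transport genes 17 were higher, and the cytosolic carbonic anhydrase gene Car2 was at -0.20 ± 0.07 (SE, adjusted p = 0.655). Of 27 genes of heparan sulfate synthesis and editing 17 were higher, led by perlecan, Hspg2, at 0.32 ± 0.12 (SE, adjusted p = 0.655), and of 10 angiotensin and peptidase genes 6 were higher. Of 16 collagen genes 13 were higher with SB and 13 were lower after injury, with medians of 0.15 and -0.04. The 5 other choroid plexus list genes had medians of 0.08 with SB and -0.07 after injury with all libraries, and 0.03 and 0.01 without the 2.

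The other comparisons share libraries with these and gave 0% of genes called as well. They set injured SB mice against sham mice given vehicle, SB against vehicle within sham, the interaction of injury with SB, and the SB effect in injured mice between the sexes. In sham mice, where SB rests on 5 libraries, 2 members were higher and 7 lower with all libraries (median -0.03), against 6 higher and 3 lower without the 2 (median 0.09). The interaction was above 0 for all 9 with all libraries (median 0.32) and for 4 of 9 without the 2 (median -0.03). Here too nothing is read from the joint direction with all libraries.

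The median SE of the 9 log2 fold changes for injury was 0.22 with all libraries and 0.09 without the 2. With 56 libraries, the 95% interval of the Enpp2 fold change was -0.12 to 0.18 for injury and -0.20 to 0.06 for SB. Car14, the member with the fewest counts, averaged 472 counts per library.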

How the data were processed

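RNA of mouse somatosensory cortex was sequenced in 58 libraries. The deposited file holds whole-number read counts per gene for 9636 genes. STAR, featureCounts, DESeq2 and the mm39 build of GRCm39 are named in the submitters' processing notes, while versions and settings are not given in the sources used. From these counts, TMM-scaled CPM were computed, with log2 values at a prior count of 2. Tests used edgeR 4.0.16 (quasi-likelihood, Benjamini-Hochberg over all genes) in R 4.3.3, with group and cohort as terms, over all libraries, and were tested on simulated data. Limma 3.58.1, DESeq2 1.42.0, another prior count, a filter at a mean of 500 counts, no cohort term, a replicate block and leaving out each library were alternatives. Leaving out both libraries that stand apart was chosen after seeing the data. The members and all gene lists were chosen with earlier results of these data known. Genes named are the members, the genes most like them by correlation, and the gene of smallest p in a list; others are said to be picked later. Every pair of libraries within a group differed beyond sampling noise, with chi-square over its degrees of freedom at least 9.83. Promoter windows come from RefSeq on GRCm38.p6 and exon lengths from GENCODE on GRCm38.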

Additional observations from a re-analysis of the deposited data

Results flagged for a closer look

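In 19 of 36 looks at a gene in a group of libraries, one library lay farther from its nearest neighbour than Dixon's 95% critical share of the range allows (0.526 for 8 libraries, 0.493 for 9, 0.710 for 5). Chance gives about 1 in 20 for genes not chosen on these libraries, a rate that does not apply to members chosen on them. Of the 19, 9 concern F sham + vehicle replicate 4, whose values were 2841 CPM for Enpp2, 140 for Col9a3, 109 for Sulf1, 108 for Igfbp2, 144 for Ace, 165 for Slc4a2, 106 for Cgnl1, 39.6 for Car14 and 326 for Trpm3. Another 9 concern M 5xCHI + SB replicate 6, whose values were 2358 CPM for Enpp2, 125 for Col9a3, 89.5 for Sulf1, 133 for Igfbp2, 120 for Ace, 124 for Slc4a2, 64.5 for Cgnl1, 33.3 for Car14 and 233 for Trpm3. The members were chosen on these libraries, so these values are no independent evidence. The last is Igfbp2 in M sham + vehicle replicate 2, at 38.7 CPM, where the next highest of the 5 libraries had 23.2 CPM.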

How the results depend on the processing

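No gene was called in any of the 11 comparisons under any alternative, nor with any library left out. Without both libraries that stand apart, the log2 fold changes for injury in vehicle mice turned to 0.0305 for Enpp2, 0.116 for Sulf1, 0.0133 for Slc4a2, 0.109 for Car14 and 0.0569 for Trpm3, and those for SB in injured mice to -0.0688 for Enpp2, -0.0578 for Col9a3, -0.0748 for Sulf1 and -0.0333 for Slc4a2. In the same setting Ace turned to 0.14 for injury in females, and Enpp2 to -0.11, Col9a3 to -0.12, Sulf1 to -0.0901 and Slc4a2 to -0.0474 for SB in injured males. Car14 turned to 0.0108 with limma voom for injury, and to 0.0398 without a cohort term for SB in injured males. Col9a3 for SB in injured females turned to 0.0039 with limma voom, 0.0068 without a cohort term and 0.0077 without both libraries. The cause was not tested.

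Leaving out 1 library at a time turned some directions. For injury the values ran between -0.44 and 0.0169 for Enpp2, -0.27 and 0.12 for Sulf1, -0.22 and 0.0063 for Slc4a2, -0.0894 and 0.10 for Car14, and -0.16 and 0.0494 for Trpm3. For SB in injured mice they ran between -0.0877 and 0.26 for Enpp2, -0.0767 and 0.31 for Col9a3, -0.0947 and 0.25 for Sulf1, -0.0403 and 0.14 for Slc4a2, and -0.16 and 0.0047 for Car14. For injury in females Ace ran between -0.84 and 0.13, and in males Igfbp2 between -0.43 and 0.0621, Slc4a2 between -0.0423 and 0.13 and Cgnl1 between -0.11 and 0.0889. For SB in females they ran between -0.0940 and 0.0135 for Col9a3, -0.0367 and 0.20 for Igfbp2, -0.0698 and 0.0053 for Slc4a2, -0.0106 and 0.12 for Cgnl1, and -0.10 and 0.0030 for Car14. For SB in males they ran between -0.11 and 0.58 for Enpp2, -0.12 and 0.65 for Col9a3, -0.0901 and 0.59 for Sulf1, -0.0474 and 0.30 for Slc4a2, and -0.26 and 0.0721 for Car14. The mean correlation of the 9 genes ran between 0.53, without F sham + vehicle replicate 4, and 0.73, and was 0.086 without both libraries.

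The replicate numbers did not pair the libraries: 21 of 62 same-number pairs had a correlation over 0.1, with a median of 0.0005, and 3 libraries correlated best with their own number. With a replicate block 0 genes were called, and 130 genes for injury and 750 for SB had an unadjusted p under 0.05. The injury effect of Enpp2 in males minus females was 0.80 with the block, 0.73 with limma voom and 1.27 without a cohort term, and ran between 0.39 and 1.26 with 1 library left out. The filter at a mean of 500 counts kept 8980 genes and dropped Car14. Member fold changes of the other comparisons were not recomputed under each alternative. DESeq2 gave no p to Ace, Enpp2 and Sulf1 in any of the 11 comparisons, so it could not call them.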
